A study of Mus musculus with 4 samples.

Results

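The genes described here are 42 that belong to the amino acid response of the cell: the transcription factor gene Atf4, genes it is known to switch on, amino acid transporters and aminoacyl-tRNA synthetases. They were chosen by name, and the platform annotation gave 40 of them at least 1 probe set of their own, out of 12393 genes so named on the array. Pycr1 and Mars1 had none under those names and were not analysed here. Each gene was read from its probe set with the highest mean log2 value. The samples were 4 cultures of Py-4-1, a mouse cell line derived from an endothelial tumour (hemangioendothelioma), each hybridised to an Affymetrix array of 1 colour. Of these, 2 arrays held clones transfected with pcDNA/Prox1 and described as stably expressing Prox1, a homeobox transcription factor of lymphatic endothelium, and 2 held control-transfected pcDNA clones. Each clone was 1 culture dish on 1 array, all clones came from the same line, and the question set by the study's title concerns Prox1 and invasion of kaposiform hemangioendothelioma.

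ATF4 is made when a kinase that senses missing amino acids, unfolded proteins, haem loss or viral RNA phosphorylates the translation factor eIF2alpha. It then binds DNA together with C/EBP factors and raises genes that import amino acids, make them and load them onto tRNA, and genes that feed back on the response. Endothelial cells use it under nutrient and endoplasmic reticulum (ER) stress, and their serine synthesis and cystine uptake are among its known outputs.

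Prox1 itself, read by 1 probe set (1421336_at), had intensities of 62.4 and 44.3 in Prox1-labelled clones 1 and 2, against 52.1 and 60.5 in control clones 1 and 2. The groups overlapped, and all of these but the value of control clone 1 lay under the brightest of 27 control probe sets made from Bacillus genes, which read 88.4 and 97.5 on the Prox1-labelled arrays and 45.3 and 101 on the control arrays. The sources used here do not say which part of Prox1 was transfected, nor if this probe set would read it, so the groups are called by their labels. Of 12 endothelial markers, 9 exceeded that control signal on every array, and the summed intensity of all 12 was 37571 and 35060 in the Prox1-labelled clones, against 26863 and 34029 in the control clones. For fibroblast markers 1 of 7 did so, with sums of 399.8 and 384 against 351 and 512. For leukocyte markers it was 2 of 6, with sums of 1236 and 1306 against 1274 and 1623, and for epithelial markers 1 of 6, with sums of 369.6 and 257 against 241 and 245. None of these markers was listed at 0, as the lowest intensity in the file was 0.156, and 0 of them passed the threshold of the test described below. The ratio of 3′ to 5′ control probe sets, a measure of RNA length, lay between 0.759 and 0.784 for Gapdh in the Prox1-labelled clones and between 0.787 and 0.800 in the control clones. For Actb it was 1.44 and 1.29 in the Prox1-labelled clones, against 1.35 and 1.38 in the control clones. The part of these measures in the results below was not tested, and fewer cells of a kind and less RNA per cell cannot be told apart in such bulk samples.

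Most members were somewhat lower in the Prox1-labelled clones, and 0 of them passed the threshold. The log2 change, Prox1-labelled minus control, was negative for 31 of 40 members and positive for 9, with a median of -0.21, where 50.4% of all genes were negative, 49.6% were positive and their median was -0.002. The changes ran from -0.95 to 0.47, so that 0 members differed 2-fold. Both Prox1-labelled clones lay below both control clones for 16 members (40% of 40), where 21.3% of all genes and 23.2% of the genes past the intensity filter did so, and above them for 3, where 20.2% of all genes did so. Groups overlapped for the other 21. With 1 clone left out fewer values have to be apart, and the count of lower members without overlap was then 30 without Prox1-labelled clone 1, 27 without control clone 1, 22 without control clone 2 and 16 without Prox1-labelled clone 2. The share of all genes was not counted with a clone left out. These counts therefore have no background and cannot be set beside the shares above. The smallest p that exact permutation of 2 and 2 clones allows is 0.333, so single genes were tested with limma, a linear model that shares its estimate of the spread across all probe sets.

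In that test 38 members passed the intensity filter, each of them on all 4 arrays. Of these, 30 were negative and 8 positive, where 49.1% and 50.9% of the genes past it were, and their adjusted p-values ran from 0.140 to 0.997. The background was low too, since 0.0144% of 6949 genes were called lower and 0.101% higher. At an unadjusted p under 0.05, 13 members were lower and 0 were higher (limma), where 6.13% of the genes past the filter were lower and 8.22% higher, or 6.13% and 8.16% when groups also had to be without overlap. These 13 were Slc7a11, Psph, Lars, Wars, Atf5, Eif4ebp1, Asns, Trib3, Ppp1r15a, Eprs, Nars, Sars and Iars, and the groups of none of them overlapped. Without control clone 2 the control group held 1 clone, and some log2 changes grew in size. Psph was then at -1.23, Slc7a11 at -0.94, Ddit3 at -0.88, Asns at -0.80 and Ddit4 at 0.83. Others shrank, with Trib3 at -0.48 and Atf4 at -0.042. Some members passed the threshold in that fit, beside many more probe sets of the whole array than in the fit of all clones. Leaving out any other single clone called no member.

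**Figure D1:**
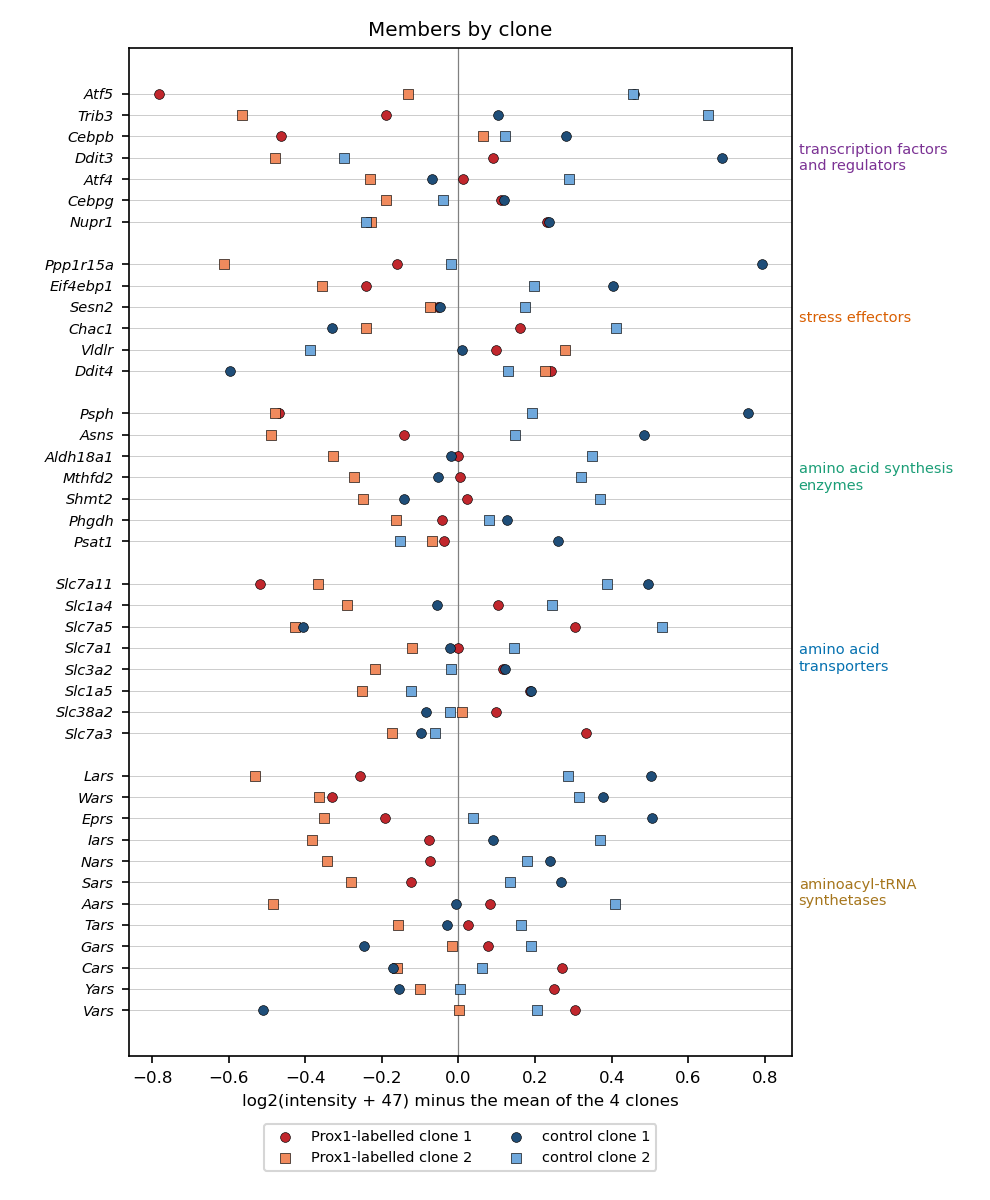
Each row is a member, grouped by role, and each point is 1 clone, as log2(intensity + 47) minus the mean of the 4 clones. Red and orange points are the Prox1-labelled clones and blue points the control clones. The red and orange points lie left of both blue points for 16 of 40 members, among them Atf5, Psph, Slc7a11 and Lars. Of all genes 21.3% were lower in this way. Clone 2 of the Prox1-labelled group is the lowest of the 4 for 27 members, where it was for 23.9% of all genes.

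The promoters of the members were searched for the letters TGATGNAA on either strand, a core of the element that ATF4 and C/EBP factors bind together. RefSeq promoter windows of 300 bases (GRCm38.p6, 250 before to 50 after the start of transcription) were at hand for 33 members. Of these, 13 held a match (39.4%), where 4.51% of 27025 genes did. The list was chosen for genes that ATF4 is known to switch on, so this excess follows from the choice and says nothing about these arrays. Among the 13 lower members 9 had a window and 4 of these held a match (44.4%), against 9 of 24 other members (37.5%). These 24 include Pycr1, which held a match, and Mars1, which held none, and neither had a value on the arrays. The stretches below show the match in capitals, as read on the strand of the gene, first for members among the 13 lower ones. The reverse complement of the motif reads TTNCATCA.
Asns, 23 bases before the start: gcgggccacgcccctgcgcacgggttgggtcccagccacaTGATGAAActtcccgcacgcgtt
Slc7a11, 66 and 47 bases before the start: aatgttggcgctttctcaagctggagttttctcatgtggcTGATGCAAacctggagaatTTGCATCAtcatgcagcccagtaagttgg
Trib3, from base 15 after the start: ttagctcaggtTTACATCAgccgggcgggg
Iars, from base 8 after the start: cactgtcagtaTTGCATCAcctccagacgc
The stretch of Asns is chr6:7693210-7693272 (minus strand), that of Slc7a11 chr3:50443632-50443719 (minus), that of Trib3 chr2:152344028-152344057 (minus) and that of Iars chr13:49682126-49682155 (plus). Slc7a11 held 2 matches in opposite orientation, 11 bases apart.

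The same letters stood in promoters of members that were not lower. The next stretches are shown because their genes overlapped between the groups or were higher in the Prox1-labelled clones.
Chac1, 193 bases before the start: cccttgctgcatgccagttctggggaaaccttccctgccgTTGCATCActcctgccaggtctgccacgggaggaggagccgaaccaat
Vldlr, 200 bases before the start: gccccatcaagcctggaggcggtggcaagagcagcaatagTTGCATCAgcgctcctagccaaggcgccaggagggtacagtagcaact
Nupr1, 110 bases before the start: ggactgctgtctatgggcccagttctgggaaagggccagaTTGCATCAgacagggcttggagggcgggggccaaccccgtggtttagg
Tars, 15 bases before the start: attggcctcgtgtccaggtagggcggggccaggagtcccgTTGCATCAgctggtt
These are chr2:119351009-119351096 (plus) for Chac1, chr19:27216780-27216867 (plus) for Vldlr, chr7:126625533-126625620 (minus) for Nupr1 and chr15:11399659-11399713 (minus) for Tars. Matches were also found for Slc1a4, Aars, Gars, Yars and Pycr1, the last of them without a value here. Over the 12 measured members with a match the median log2 change was -0.16, with 8 negative, and over the 19 measured members with a window and no match it was -0.23, with 17 negative. A match is a run of letters and not a shown binding site, and no match says only that the letters are not in this window.

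Among the transcription factors and regulators, Atf5 and Trib3 were lower and Atf4 itself overlapped between the groups. Atf4 (1448135_at) had intensities of 5865 and 4946 in Prox1-labelled clones 1 and 2, against 5547 and 7109 in control clones 1 and 2. Prox1-labelled clone 1 lay between the control clones, and the log2 change was -0.22 ± 0.19 (SE, limma adjusted p = 0.653), with a 95% confidence interval from -0.65 to 0.21. It was -0.042 without control clone 2 and -0.40 without control clone 1. Another probe set of Atf4 (1438992_x_at), whose suffix says that its probes can match other sequences, read 1513 and 1817 against 2230.0 and 2195, without overlap (-0.41, limma adjusted p = 0.359). ATF4 is controlled mainly through translation of its mRNA, which arrays do not measure.

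Atf5 (1425927_a_at), a related factor that is itself a target of ATF4, read 461 and 750.2 in the Prox1-labelled clones, against 1152 and 1150 in the control clones. The control clones were nearly equal and both Prox1-labelled clones were below them, clone 1 most (log2 change -0.91 ± 0.24, limma adjusted p = 0.172), with -0.59 without Prox1-labelled clone 1. Trib3 (1426065_a_at), a pseudokinase that feeds back on ATF4, read 1511 and 1155 against 1860.2 and 2744. Its change was -0.75 ± 0.24 (limma adjusted p = 0.219), and its other probe set past the filter gave -0.32 with overlapping groups. The change was -0.48 without control clone 2 and -1.03 without control clone 1.

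Cebpb, a C/EBP factor that pairs with ATF4, read 1097 and 1603 in the Prox1-labelled clones, against 1869 and 1669 in the control clones, the closest values being 1603 and 1669 (log2 change -0.40, limma adjusted p = 0.442, and -0.14 without Prox1-labelled clone 1). Ddit3, which encodes the stress factor CHOP, read 1804 and 1200.4 against 2755 and 1367. Control clone 1 stood above the other clones for Ddit3, and the log2 change of -0.39 (limma adjusted p = 0.633) was 0.10 without it and -0.88 without control clone 2. Nupr1, a chromatin-associated stress protein, differed by 0.003 (limma adjusted p = 0.997), with 1146 and 819.9 against 1150.1 and 813, and by -0.042 when arrays were centred on their medians. Cebpg, the usual partner of ATF4, gave -0.079 (limma adjusted p = 0.899), and its other probe set past the filter gave 0.012. The median log2 change of these 7 genes was -0.39, and it was -0.10 without Prox1-labelled clone 2. Of the 7, 6 were negative and 3 were lower without overlap, where 49.1% and 23.2% of the genes past the filter were.

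**Figure D2:**
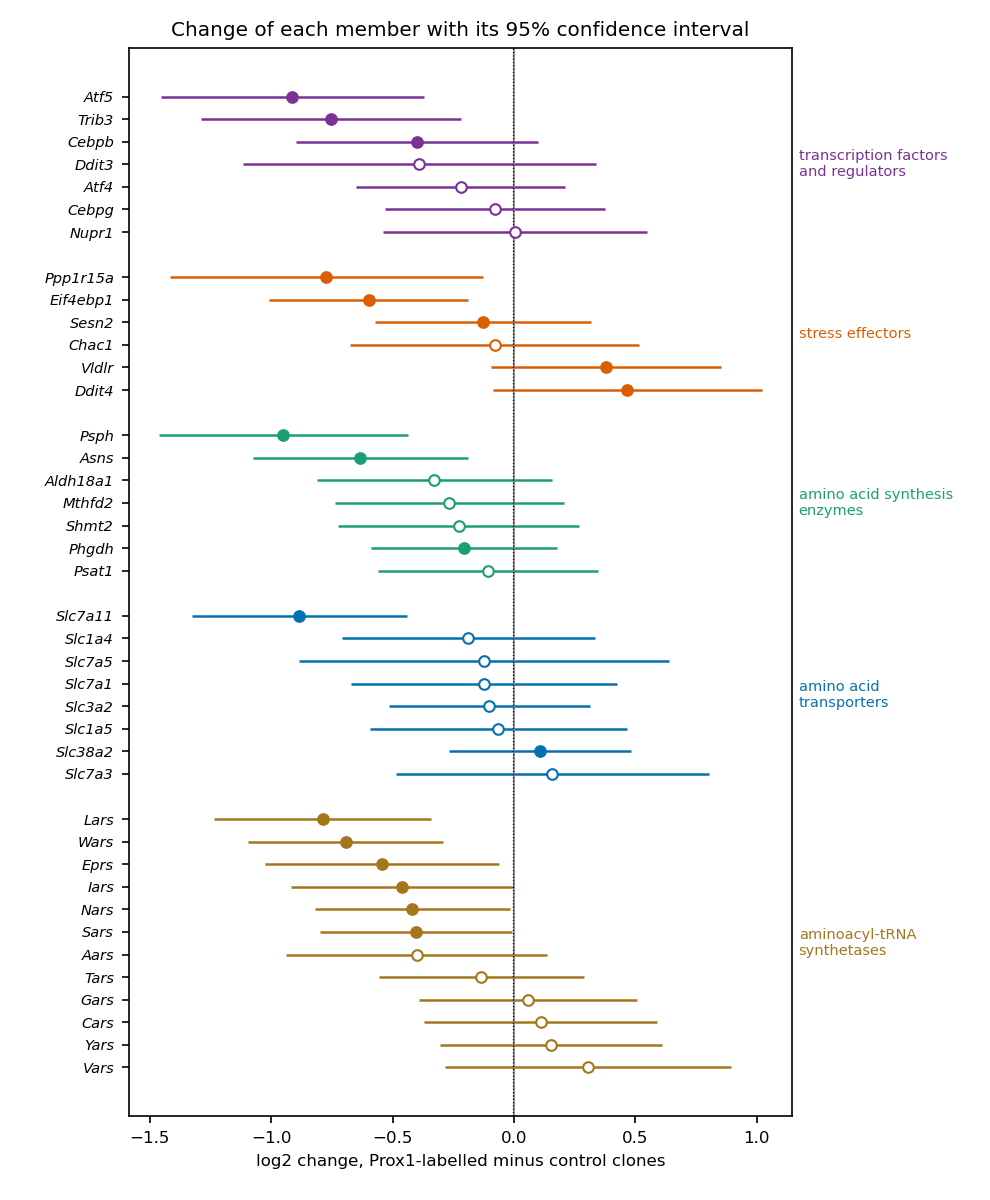
The log2 change of each member, Prox1-labelled minus control clones, is a point with its 95% confidence interval from limma, grouped by role. Filled points are members whose groups do not overlap, and the dotted line is the median of all genes at -0.002. The intervals of 13 members, all lower, leave out 0. Of the genes past the filter 6.13% were lower at an unadjusted p under 0.05 (limma). Psph at -0.95 and Ddit4 at 0.47 are the ends of the range.

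The stress effectors, which act on translation, signalling or metabolism downstream of the factors, split in direction. Ppp1r15a (1448325_at), the phosphatase subunit that removes the phosphate from eIF2alpha, read 845 and 605 in the Prox1-labelled clones, against 1679 and 936 in the control clones. The control clones differed from each other by 0.81 log2, more than the change between the groups (-0.77 ± 0.29, limma adjusted p = 0.271), which was -0.37 without control clone 1. Eif4ebp1 (1434976_x_at), a repressor of cap-dependent translation, read 2023 and 1866 against 3190.1 and 2759, with each group close together (-0.60 ± 0.18, limma adjusted p = 0.207).

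Another probe set of Eif4ebp1 (1417562_at) gave -0.82 (limma adjusted p = 0.192), and the third past the filter gave 0.068, so that its probe sets differed in sign. Ddit4, an inhibitor of mTORC1 signalling, read 2181 and 2159 in the Prox1-labelled clones, against 1201 and 2016 in the control clones. It was higher without overlap, though control clone 2 came close (0.47 ± 0.24, limma adjusted p = 0.420), and its change was 0.10 without control clone 1.

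Vldlr, a lipoprotein receptor induced by ATF4, was the other member of this role that was higher without overlap. The probe set that stands for it (1434465_x_at) read 1058 and 1206 in the Prox1-labelled clones, against 992 and 742 in the control clones (0.38 ± 0.21, limma adjusted p = 0.444). This change was 0.18 without control clone 2. Another probe set of Vldlr (1417900_a_at) read 378 and 334 in the Prox1-labelled clones, against 130.0 and 135 in the control clones. It passed the intensity filter only through the Prox1-labelled arrays, so its log2 change of 1.16 had to be positive and adds nothing to the first.

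Chac1, which degrades glutathione and is among the sharpest ATF4 targets, read 2504 and 1885 in the Prox1-labelled clones, against 1769 and 2987 in the control clones. The Prox1-labelled clones lay inside the range of the control clones (-0.080, 95% confidence interval -0.68 to 0.52, limma adjusted p = 0.924). Sesn2, a leucine sensor that restrains mTORC1, was lower without overlap by a small margin (451 and 443 against 452 and 536, -0.13, limma adjusted p = 0.819), and its other probe set gave 0.067. The median log2 change of the 6 effectors was -0.10, and it was 0.082 without control clone 2 and 0.002 without Prox1-labelled clone 2.

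All 7 measured amino acid synthesis enzymes had a negative log2 change, and Psph and Asns had the largest. Psph (1415673_at), the phosphatase that completes serine synthesis, read 549.9 and 545 in the Prox1-labelled clones, against 1349 and 898 in the control clones. The Prox1-labelled clones were nearly equal and both control clones well above them (-0.95 ± 0.23, limma adjusted p = 0.160), and the change was -0.67 without control clone 1. Asns (1451095_at), asparagine synthetase, read 6278 and 4926 against 9715 and 7693 (-0.63 ± 0.19, limma adjusted p = 0.211). Its second probe set gave -0.42, also without overlap.

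The other enzymes lay closer to 0. Phgdh, which opens serine synthesis, read 3421 and 3146 in the Prox1-labelled clones, against 3851 and 3732 in the control clones, without overlap (-0.21, limma adjusted p = 0.632). Each of its 4 probe sets carries the suffix for probes that can match other sequences, and they ran from -0.36 to -0.011. Psat1, the aminotransferase between Phgdh and Psph, gave -0.11 (limma adjusted p = 0.856), so that the 3 steps of the same pathway had log2 changes of -0.21, -0.11 and -0.95; the differences between these genes were not tested.

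Mthfd2 and Shmt2, mitochondrial enzymes of folate metabolism, gave -0.27 and -0.23, and Aldh18a1, which makes the proline precursor, gave -0.33, each with overlapping groups. Their adjusted p-values lay between 0.527 and 0.694 (limma). Of the probe sets of Aldh18a1 past the filter 1 gave -0.74 without overlap and another 0.038, and those of Shmt2 ran from -0.47 to 0.16. The median of the 7 enzymes was -0.27, and -0.43 over the 6 that remained without probe sets that can match several transcripts.

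Among the amino acid transporters, Slc7a11 had a change several times the size of the other 7. Slc7a11 (1420413_at), which exchanges cystine for glutamate and supplies glutathione synthesis, read 268 and 302 in the Prox1-labelled clones, against 588 and 543 in the control clones. Its log2 change of -0.88 ± 0.20 had the smallest p of all members (limma adjusted p = 0.140, 95% confidence interval -1.33 to -0.44), and it ran from -0.96 to -0.81 when single clones were left out. The other 7 lay between -0.19 and 0.16.

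Slc3a2, the heavy chain that Slc7a11 and Slc7a5 need to reach the surface, read 6080.4 and 4807 in the Prox1-labelled clones, against 6099 and 5527 in the control clones (-0.10, limma adjusted p = 0.848). Slc7a5, the carrier of leucine and other large neutral amino acids, read 821 and 476 against 484 and 968, so that each group spanned nearly the range of the other (-0.12, 95% confidence interval -0.88 to 0.64). Slc38a2, a glutamine and alanine carrier known to be induced on amino acid loss, was higher without overlap by 0.11 (5229 and 4906 against 4595 and 4804, limma adjusted p = 0.818).

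Slc1a5 and Slc1a4, carriers of glutamine and small neutral amino acids, gave -0.064 and -0.19 with overlapping groups. Slc7a1 and Slc7a3, carriers of arginine and lysine, lay below the intensity filter, with 154 and 138 against 151 and 175 for Slc7a1 and 168 and 104 against 113 and 117 for Slc7a3. Their signals exceeded the highest Bacillus control probe set on every array, and their changes of -0.12 and 0.16 came from the fit without the filter (limma adjusted p = 0.893 and 0.884). The median of the 8 transporters was -0.11, and 0.11 without Prox1-labelled clone 2.

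The aminoacyl-tRNA synthetases, which load each amino acid onto its tRNA, are given here by whether their groups overlapped. Differences between the synthetases were not tested. Of 12 measured, 6 were lower without overlap and had an unadjusted p under 0.05, namely Lars, Wars, Eprs, Iars, Nars and Sars, where 6.13% of the genes past the filter met both conditions and 23.2% were lower without overlap. Lars (1448403_at), the leucine enzyme, read 996 and 814 in the Prox1-labelled clones, against 1718 and 1471 in the control clones (-0.79 ± 0.20, limma adjusted p = 0.165). Wars (1434813_x_at), the tryptophan enzyme, read 1294 and 1262 against 2143 and 2049 (-0.69 ± 0.18, limma adjusted p = 0.168). Clones of the same group lay close together for Wars, and each of its 4 probe sets was lower without overlap, from -0.69 to -0.41.

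Eprs (1452157_at), which serves glutamate and proline, read 1248 and 1112 in the Prox1-labelled clones, against 2052 and 1472 in the control clones (-0.54 ± 0.21, limma adjusted p = 0.290). Its change was -0.31 without control clone 1. Iars (1426705_s_at), the isoleucine enzyme, read 1374 and 1104 against 1549 and 1891 (-0.46, limma adjusted p = 0.343). Nars and Sars, the asparagine and serine enzymes, were also lower, with 3827 and 3165 against 4765 and 4568 for Nars (1452866_at) and 3027 and 2715 against 3991 and 3633 for Sars (1426257_a_at). The second probe sets of Iars, Nars and Sars gave -0.47, -0.46 and -0.40, close to the first at -0.46, -0.42 and -0.40.

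The other 6 synthetases overlapped between the groups. Aars, the alanine enzyme, read 2867 and 1918 in the Prox1-labelled clones, against 2691 and 3602 in the control clones (-0.40, limma adjusted p = 0.481). Its change was close to that of Sars (-0.40), whose groups did not overlap. Vars, the valine enzyme, had the highest change of the 12, at 0.31 (953 and 763 against 521 and 886, limma adjusted p = 0.644), and it was -0.052 without control clone 1. Tars gave -0.13, Gars 0.059, Cars 0.11 and Yars 0.15, with 95% confidence intervals that reached from -0.56 to 0.61 over these 4. The median log2 change of the 12 was -0.40, and -0.20 without Prox1-labelled clone 2.

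**Figure D3:**
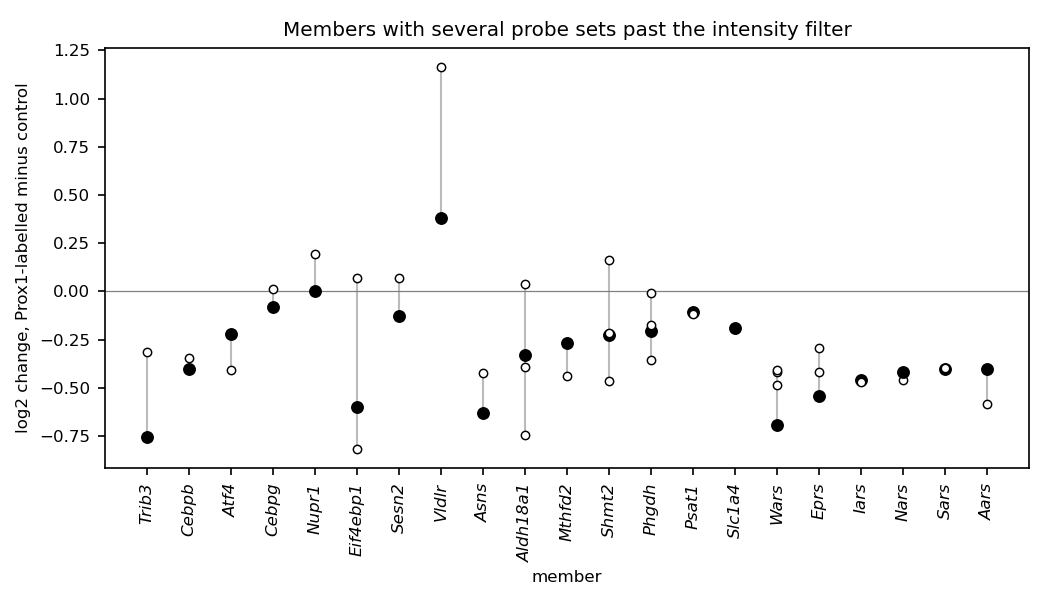
For the 21 members with several probe sets past the intensity filter, each point is the log2 change of 1 probe set, Prox1-labelled minus control clones, and filled points are the probe sets that stand for the gene. Probe sets of the synthetases shown lie below 0, 5 members (Cebpg, Eif4ebp1, Sesn2, Aldh18a1 and Shmt2) have probe sets on both sides of it, and of those of Vldlr the one at 1.16 passed the filter only through the Prox1-labelled arrays.

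Several probe sets past the filter existed for 21 members, and for 16 of these every one had the same sign. Over all 69 probe sets of members past the filter, that of Vldlr at 1.16 among them, 54 were negative, and 0 passed the threshold, which 0.0944% of 11656 probe sets passed as higher and 0.00858% as lower.

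The 2 Prox1-labelled clones differed from each other along this set of genes. Clone 1 was above clone 2 for 36 of 40 members, where it was above for 53.1% of all genes, and the median log2 difference, clone 1 minus clone 2, was 0.27, against 0.017 for all genes. All 12 synthetases and all 7 synthesis enzymes were higher in clone 1 than in clone 2. The exceptions were Atf5 (-0.65), Cebpb (-0.53), Vldlr (-0.18) and Slc7a11 (-0.15). Between the control clones the members split evenly, with 20 higher in clone 1 and a median of -0.017, where 44.1% of all genes were higher in clone 1 and their median was -0.048. Prox1-labelled clone 2 held the lowest value of the 4 arrays for 27 members, where it did so for 23.9% of all genes, and Prox1-labelled clone 1 for 3.

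The comparison of the groups depended on which Prox1-labelled clone was used. Without Prox1-labelled clone 1 the median log2 change of the members was -0.35, and without Prox1-labelled clone 2 it was -0.10. The largest differences between the Prox1-labelled clones were those of Slc7a5 (0.73), Atf5 (-0.65), Ddit3 (0.57) and Aars (0.57), and between the control clones those of Ddit3 (0.99), Slc7a5 (-0.94) and Ppp1r15a (0.81). Since 1 array stands for each clone, differences of clone, culture, RNA and array handling cannot be told apart.

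**Figure D4:**
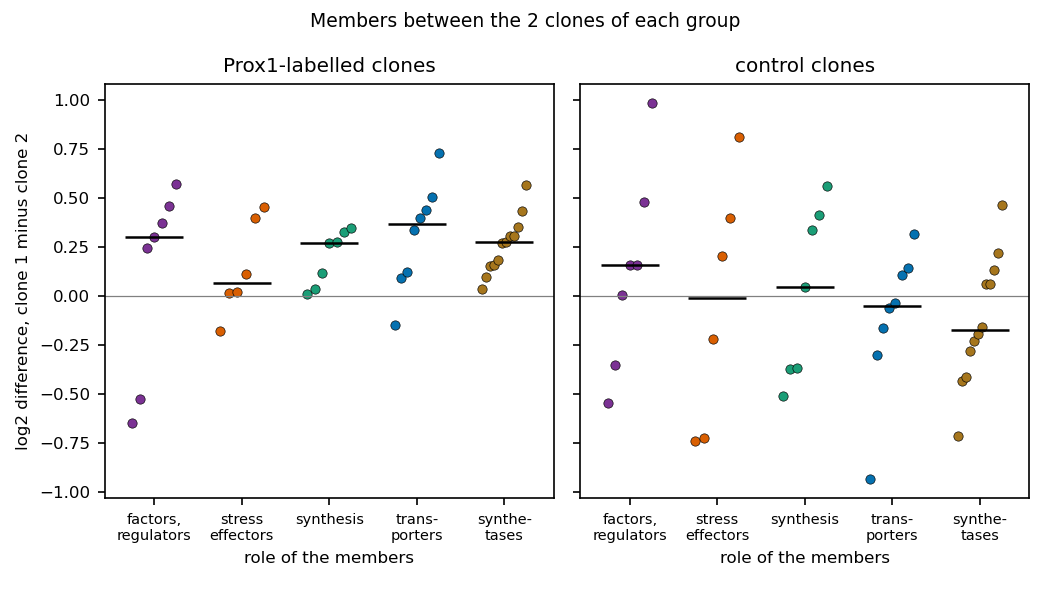
Each point is a member, as log2 difference of clone 1 minus clone 2, in the Prox1-labelled clones on the left and in the control clones on the right, by role, with the median as a bar. In the Prox1-labelled clones 36 of 40 points lie above 0, where 53.1% of all genes do, and in the control clones 20 do, where 44.1% of all genes do.

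Other genes of the pathway came from lists of related genes. Upstream, of 13 measured eIF2alpha kinases, eIF2 and eIF2B subunits and their partners 10 were negative, with a median of -0.19, and 0 passed the threshold. At an unadjusted p under 0.05, 3 were lower, where 6.13% of genes were, and these were Ppp1r15b (-0.56), the constitutive partner of the eIF2alpha phosphatase, the exchange factor subunit Eif2b4 (-0.49) and the kinase inhibitor Dnajc3 (-0.62). Their adjusted p-values lay between 0.223 and 0.295 (limma), and Dnajc3 was at -0.28 without control clone 1.

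Of 9 measured genes of the other cytosolic synthetases and their scaffold 7 were negative, with a median of -0.17, and 3 were lower at an unadjusted p under 0.05, again beside 6.13% of genes. These were the scaffold proteins Eef1e1 (-0.65) and Aimp2 (-0.49) and the histidine enzyme Hars (-0.55), with adjusted p-values from 0.264 to 0.317 (limma). Without control clone 1, Eef1e1 was at -0.34 and Aimp2 at -0.32, and Hars was at -0.31 without Prox1-labelled clone 1. The mitochondrial synthetases, which are made by separate genes, had 3 negative and 5 positive of 8 measured, with a median of 0.15. Of the 8, 6 passed the filter. The signs rested in part on single clones. Without control clone 1, Ears2 and Sars2, positive and below the filter, turned to -0.24 and -0.28. Fars2 and Tars2 were then at -0.45 and -0.48, and Iars2 and Pars2 at 0.23 and 0.12. Without control clone 2, Fars2 and Tars2 turned to 0.045 and 0.34. Tars2 was at 0.039 without Prox1-labelled clone 1, and Iars2 at -0.13 without Prox1-labelled clone 2. Among these enzymes Rars2 read 773 and 834 in the Prox1-labelled clones, against 389.8 and 566 in the control clones (0.72 ± 0.22, limma adjusted p = 0.211, and 0.47 without control clone 1). The difference between cytosolic and mitochondrial enzymes was not tested.

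Of 14 other measured ATF4 targets 10 were negative, with a median of -0.30, and 0 passed the threshold. The mitochondrial protease gene Lonp1 read 1267 and 1268 in the Prox1-labelled clones, against 2656 and 1963 in the control clones (-0.83 ± 0.20, limma adjusted p = 0.165). The ER-associated degradation gene Herpud1 read 834 and 512 against 2114 and 912 (-1.04, limma adjusted p = 0.255), so that its control clones differed by 1.17 log2, more than the groups did, and its change was -0.45 without control clone 1. The autophagy receptor gene Sqstm1 gave -0.54 (limma adjusted p = 0.288), and -0.29 without control clone 1. In the other direction, the stress factor gene Atf3, named after its values were seen, was higher without overlap, with 2502 and 1674 in the Prox1-labelled clones, against 1208 and 1619 in the control clones (0.53, limma adjusted p = 0.356, and 0.25 without Prox1-labelled clone 1). Other amino acid transporters had a median of -0.16 over 15 measured, of which 4 passed the filter. One-carbon, proline and glutamine enzymes had a median of -0.009 over 9 measured, of which 5 passed the filter. Among those 5 was Shmt1, the cytosolic counterpart of Shmt2, at 0.57 (limma adjusted p = 0.265).

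The ER chaperones of the ATF6 and XBP1 branches, the other arms of the response to unfolded proteins, were lower as well. All 14 were negative, with a median of -0.67, 12 were lower without overlap, and 10 had an unadjusted p under 0.05, though 0 passed the threshold. Of the genes past the filter 49.1% were negative, 23.2% were lower without overlap and 6.13% were lower at that p. The disulfide isomerase gene Pdia4 (-1.69, limma adjusted p = 0.0530), Creld2 (-1.68, limma adjusted p = 0.128) and Sdf2l1 (-1.56, limma adjusted p = 0.128) had the smallest p-values. Without control clone 1 these were at -1.50, -1.06 and -1.06. Dnajb9 then turned to 0.064, and Sel1l and Hyou1 lay at -0.028 and -0.13, against -0.49 and -0.55 with all clones. For these genes the size of the fall leaned on control clone 1. Edem1 and Calr moved little without it, from -0.22 to -0.19 and from -0.62 to -0.58. The 14 genes were higher in control clone 1 than in control clone 2 in 14 of 14 cases, by a median of 0.72 log2. The ATF4 set had a median of -0.017, and all genes had -0.048, with 44.1% of them higher in control clone 1. Both comparisons use the same 4 arrays.

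**Figure D5:**
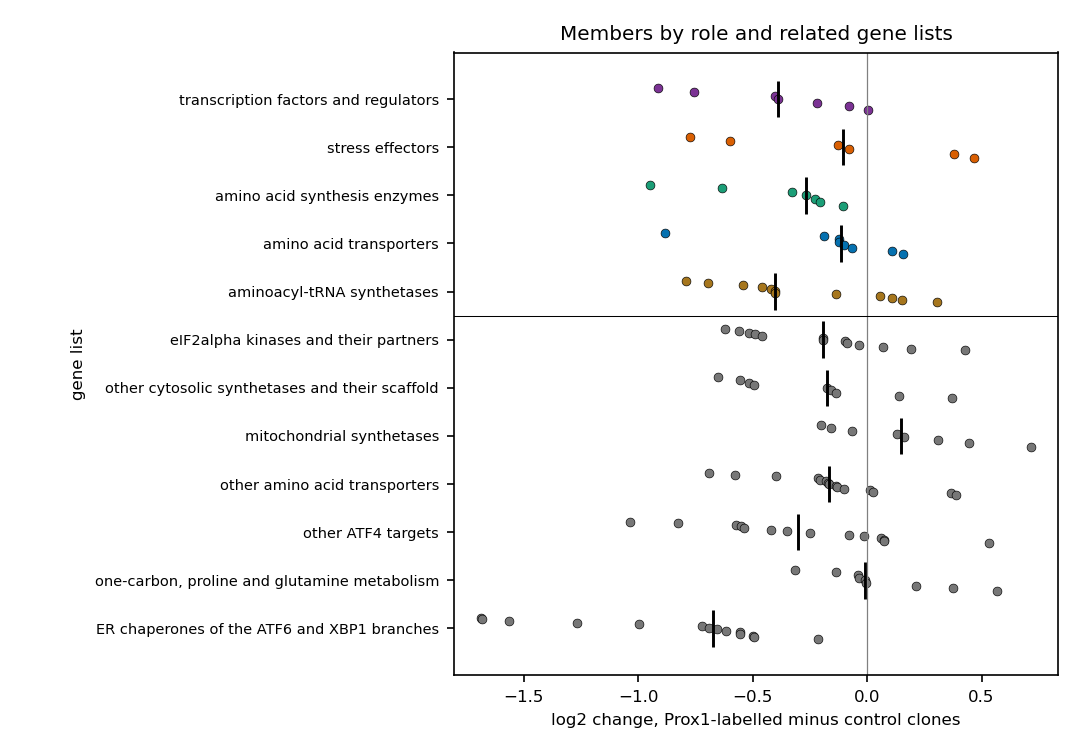
Each point is the log2 change of 1 gene, Prox1-labelled minus control clones, with the members by role above the line and the related lists below it, and the bar is the median of the list. Medians run from -0.40 for the synthetases to -0.10 for the stress effectors among the members, and from -0.67 for the ER chaperones to 0.15 for the mitochondrial synthetases among the related lists.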

How the data were processed

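The authors deposited 1 linear intensity per probe set and array. Per the submitters' processing notes these came from MAS5, which combines a probe set's probes into 1 value. Its version is not given in the sources used here. Each deposited column had a mean of 500 after trimming 2% at either end. Median intensities lay between 162.7 and 179.7. Detection calls were not used here, and the number of arrays limits the precision.

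Of 22690 probe sets, 64 Affymetrix controls were left out, and 20380 of the rest had 1 gene in the platform annotation, 691 several and 1555 none. Only probe sets with 1 gene were given a name. Of these, 20351 matched the RefSeq table of GRCm38.p6 by identifier, and 0 symbols needed updating. Promoter stretches are credited to RefSeq.

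The scale was log2(intensity + 47), with the lower quartile of the file's values as pseudocount, which understates changes at low signal. The test covered 11656 probe sets that exceeded the array median on at least 2 arrays, with limma 3.58.1 in R 4.3.3 (lmFit, eBayes with an intensity trend, 2-sided, Benjamini-Hochberg adjustment over all of them, threshold 0.05). A total of 12 probe sets passed. P-values measure only the spread between these clones. The procedure was tested on simulated data.

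The members, the lists and the rule for naming were chosen with earlier results of these data known. By that rule, members without overlap at an unadjusted p under 0.05 and Atf4 are given in full, and up to 4 others of each role were to be named by the size of their change. The remaining members were named as well, after their values were seen, so that each is accounted for.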

Additional observations from a re-analysis of the deposited data

How the results depend on the processing

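Over 15 alternatives (another or no pseudocount, quantile normalization, median centring, no or a stricter intensity filter, eBayes without the trend or made robust, the replicate block, each clone left out, no probe sets that can match several transcripts, and the mean over probe sets of a gene) no member was called, except without control clone 2. Leaving out a clone gave 0 to 1 members called higher, 0 to 9 lower, 16 to 30 lower without overlap, and 42 to 1150 probe sets called (42 without Prox1-labelled clone 1, 67 without Prox1-labelled clone 2, 133 without control clone 1, 1150 without control clone 2), with the left-out group resting on 1 array. The counts without overlap in these fits have no share of all genes beside them. By probe set, 12 were called with all clones, and 4 under quantile normalization, 0 without the filter, 7 with the robust model, 110 with the replicate block and 5 with the mean over probe sets. The block called 0 members, and the cause was not tested. Same-numbered clones share only a number, and their deviations from the group means correlated at -0.0091. The median of the members ran from -0.35 to -0.10 when a clone was left out, that of the factors from -0.48 to -0.10, the effectors from -0.30 to 0.082, the synthesis enzymes from -0.46 to -0.15, the transporters from -0.28 to 0.11 and the synthetases from -0.52 to -0.20. Without probe sets that can match several transcripts the synthesis enzymes had a median of -0.43.

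Signs of 15 members turned when a clone was left out: Ddit3 (-0.88 to 0.10), Cebpg (-0.23 to 0.070), Nupr1 (-0.24 to 0.24), Chac1 (-0.45 to 0.29), Psat1 (-0.31 to 0.10), Shmt2 (-0.48 to 0.028), Slc7a3 (-0.094 to 0.41), Slc7a5 (-0.59 to 0.34), Slc3a2 (-0.27 to 0.066), Slc1a4 (-0.39 to 0.011), Slc1a5 (-0.28 to 0.16), Cars (-0.11 to 0.33), Gars (-0.16 to 0.28), Vars (-0.052 to 0.66) and Yars (-0.024 to 0.33). None of the 13 lower members was among them. This follows from their choice, since leaving out 1 clone cannot turn the sign of a change between groups that do not overlap. Without changing sign, values moved by over 1.5 times also for Aars (-0.69 to -0.12), Aldh18a1 (-0.51 to -0.14), Mthfd2 (-0.45 to -0.079), Sesn2 (-0.24 to -0.015), Slc38a2 (0.062 to 0.15), Slc7a1 (-0.21 to -0.041) and Tars (-0.23 to -0.038). Leaving out clones for genes of the related lists was added after seeing the data. Nupr1 also turned under median centring (-0.042). No scaling moved the median of all genes by over 0.1. The count of members lower without overlap did depend on scaling. It was 16 in the main fit, 17 under quantile normalization and 22 under median centring. The share of all genes under these scalings is not given here. Phgdh had no value without probe sets that can match several transcripts, and members below the stricter filter had none under it.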
